A study of Homo sapiens with 6 samples.

Results

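The 5 NF-κB subunits (RELA, RELB, REL, NFKB1 and NFKB2) and the 5 proteins of the kinase machinery upstream of them (CHUK, IKBKB, IKBKG, IKBKE and MAP3K14) were followed in melanoma cells after knockdown of NFKBIZ. These 10 genes were taken by symbol from the 47432 genes in the count tables, and all 10 were found once in every table. IκBζ, the NFKBIZ product, is a nuclear protein of the IκB family that binds NF-κB dimers and alters which genes they switch on.

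NF-κB works as dimers of its subunits, which IκB proteins hold inactive in the cytoplasm. In the canonical pathway, receptors for inflammatory cytokines activate a complex of IKKβ (IKBKB), IKKα (CHUK) and the scaffold NEMO (IKBKG), which marks IκBα for destruction and releases dimers such as RELA with the mature NFKB1 product. In the alternative pathway, receptors such as the lymphotoxin β receptor stabilise NIK (MAP3K14), which activates IKKα so that the NFKB2 precursor is processed and RELB-containing dimers enter the nucleus. IKKε (IKBKE) is a related kinase best known from innate antiviral signalling.

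RNA-seq was performed on LOX-IMVI cells, a line derived from a human melanoma, and the labels name no stimulus. All cells carried a lentiviral pLKO.1 vector and had been selected with puromycin. The control vector (shCtrl, 3 libraries) was set against 1 hairpin directed at NFKBIZ (shNFKBIZ, 3 libraries), and the methods describe 3 independent experiments a condition. With a single hairpin, changes through NFKBIZ and changes through other targets of that hairpin cannot be told apart.

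The libraries held 22264473 to 24624839 exon reads and 1812526 to 1975528 intron reads, and introns took 7.16 to 7.46% of gene reads in shCtrl and 7.63 to 8.15% in shNFKBIZ. NFKBIZ itself had exon counts of 1519, 1629 and 1674 with the control vector and 474, 477 and 468 after knockdown, a log2 fold change of -1.78 ± 0.06 (SE; edgeR, adjusted P = 7.2e-17). Of 7 melanocytic markers, SOX10 and MLANA were at 0 in every library and only MITF exceeded 1 TPM in all of them (3.21 TPM in shCtrl and 2.00 in shNFKBIZ), whereas AXL, a marker of dedifferentiated melanoma, stood at 407 and 486 TPM. Of the 3 melanoma markers listed in that class, only AXL exceeded 1 TPM in all libraries. S100B was at 0, and NGFR was at 0.0505 TPM in shCtrl and 0.0277 in shNFKBIZ. The summed level of 4 immune markers did not exceed 0.482 TPM in any library. KRT14, 1 of 2 epithelial markers, rose from 0.570 to 1.59 TPM, and the pair summed to 0.593 to 1.01 TPM in shCtrl and 1.58 to 1.85 TPM in shNFKBIZ. The part of these markers in the results was not tested. Much of the transcriptome differed between the groups: 65.3% of 13843 genes tested changed in exon reads (adjusted P at most 0.05) and 8.96% also by at least 2-fold, so each count of members below is read against these shares.

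Most members changed, but only NFKB2 by 2-fold. In exon reads, 7 of 10 members passed the test, against the 65.3% of all genes. Of the 10, 6 passed and were lower in shNFKBIZ, against 32.8% of all genes. Among the 9039 genes that changed, 4543 were lower. The 1 member that passed and was higher was MAP3K14, where 32.5% of all genes were higher. NFKB2 was the 1 member past the 2-fold threshold, against 8.96% of all genes. The median log2 fold change of the members was -0.18, that of all genes 0.00, and the median size of the change was 0.24 for the members and 0.30 for all genes. The median change of the members was thus not larger in size than that of the genes around them. In bulk RNA, a change in every cell and a change in some of the cells cannot be told apart.

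Levels can be compared between genes only per length of transcript, as TPM, the share of transcripts after division by exon length. In shCtrl cells RELA was the highest of the members at 87.6 ± 1.93 TPM (SD, n = 3), followed by NFKB2 at 48.0 ± 1.86 TPM and IKBKG at 30.7 ± 0.679 TPM. CHUK (26.6 ± 2.39) and RELB (24.9 ± 0.884) overlapped between libraries, as did IKBKB (19.7 ± 0.820) and IKBKE (19.5 ± 0.801), and MAP3K14 (16.6 ± 1.73) and NFKB1 (16.3 ± 0.403). REL was the lowest at 4.55 ± 0.516 TPM. In shNFKBIZ cells RELA remained first at 80.6 ± 0.445 TPM and REL last at 3.12 ± 0.428 TPM. IKBKG came next at 34.8 ± 1.75 TPM, and NFKB2 (25.3 ± 0.459 TPM) now overlapped RELB (25.1 ± 0.478 TPM). MAP3K14 (21.5 ± 0.821), CHUK (21.3 ± 0.459), IKBKE (19.4 ± 1.59) and IKBKB (17.2 ± 0.998) followed, each overlapping the next, and NFKB1 (15.4 ± 0.219) came before REL. TPM has no scaling between libraries beyond the total, whereas the fold changes below use TMM factors, so a gene with equal TPM reads slightly lower in the fold changes.

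**Figure D1:**
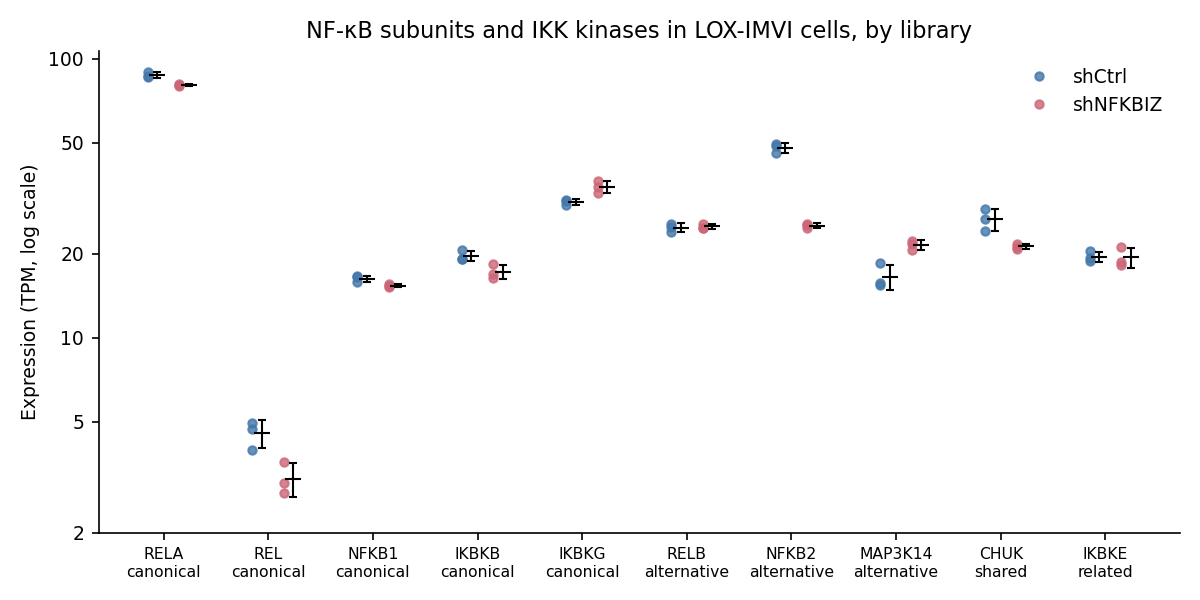
Expression of the 10 genes in TPM (log scale) in each of the 3 shCtrl and 3 shNFKBIZ libraries, with the arm of the pathway under each symbol. NFKB2 lies at 46.0 to 49.5 TPM in shCtrl and at 24.8 to 25.6 TPM in shNFKBIZ, and MAP3K14 and IKBKG lie above shCtrl in all 3 shNFKBIZ libraries on this scale.

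NFKB2, which encodes the precursor p100 and its product p52, is the DNA-binding partner of RELB in the alternative pathway. Its gene (ENSG00000077150) lies at chr10:102394110-102402524 on the plus strand of hg38 and shares no bases with another listed gene. The promoter windows below are from RefSeq on GRCh38.p14, each 250 bases before to 50 bases after an annotated start. Of the 10 members, 8 had windows there, 15 in all, and RELB and IKBKB had none to search. The windows below are shown because they hold the matches to the κB consensus, the sequence that NF-κB dimers bind, or, for MAP3K14, because it moved the other way and holds none. Capitals mark the matches found on either strand, and overlapping matches are drawn as 1 run. Each line gives the gene, the window and the strand.
NFKB2 chr10:102394328-102394627 (+): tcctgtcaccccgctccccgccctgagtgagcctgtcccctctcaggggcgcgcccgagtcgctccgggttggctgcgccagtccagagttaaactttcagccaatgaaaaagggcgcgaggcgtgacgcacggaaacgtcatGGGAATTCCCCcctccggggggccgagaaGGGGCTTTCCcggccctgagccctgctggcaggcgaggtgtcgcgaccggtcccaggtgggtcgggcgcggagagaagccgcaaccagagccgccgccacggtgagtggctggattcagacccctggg
NFKB2 chr10:102395455-102395754 (+): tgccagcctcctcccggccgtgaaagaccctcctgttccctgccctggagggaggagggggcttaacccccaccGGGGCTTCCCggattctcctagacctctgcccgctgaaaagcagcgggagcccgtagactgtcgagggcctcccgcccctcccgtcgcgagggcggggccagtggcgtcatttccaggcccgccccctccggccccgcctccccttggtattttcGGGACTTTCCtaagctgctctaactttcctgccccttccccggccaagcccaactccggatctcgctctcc
NFKB1 chr4:102501109-102501408 (+): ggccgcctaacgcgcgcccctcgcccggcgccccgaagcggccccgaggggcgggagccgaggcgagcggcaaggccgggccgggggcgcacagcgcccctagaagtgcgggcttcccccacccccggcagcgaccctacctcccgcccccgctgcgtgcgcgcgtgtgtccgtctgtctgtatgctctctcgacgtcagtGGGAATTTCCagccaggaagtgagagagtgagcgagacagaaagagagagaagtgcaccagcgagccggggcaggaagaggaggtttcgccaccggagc
REL chr2:60881324-60881623 (+): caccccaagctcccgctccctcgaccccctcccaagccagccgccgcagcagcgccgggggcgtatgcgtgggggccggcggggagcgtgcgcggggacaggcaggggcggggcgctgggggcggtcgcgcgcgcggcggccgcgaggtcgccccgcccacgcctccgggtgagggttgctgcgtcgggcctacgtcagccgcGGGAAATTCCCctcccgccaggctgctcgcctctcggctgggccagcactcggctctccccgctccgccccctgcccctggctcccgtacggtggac
MAP3K14 chr17:45316971-45317270 (-): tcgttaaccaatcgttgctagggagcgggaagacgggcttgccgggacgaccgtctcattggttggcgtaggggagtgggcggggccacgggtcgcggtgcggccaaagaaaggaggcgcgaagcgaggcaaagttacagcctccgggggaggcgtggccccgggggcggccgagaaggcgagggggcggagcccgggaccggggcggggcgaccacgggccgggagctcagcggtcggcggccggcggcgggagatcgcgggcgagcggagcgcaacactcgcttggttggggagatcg
A κB match stood in 3 of the 8 member genes, which were NFKB2, NFKB1 and REL. Over all promoters it stood in 13.3% of 27305 genes and 11.3% of 35116 windows. Of the 15 member windows, matches lay in 2 of NFKB2, with 2 runs in each, and in 1 each of NFKB1 and REL. The members had more windows per gene than all promoters, so the shares per gene are not like for like. No window of RELA or CHUK, which were lower, held a κB match, nor did those of MAP3K14, IKBKG and IKBKE. The GAS-like pattern TTCNNNGAA, a form bound by STAT dimers, occurred in 1 member gene, RELA, and in 9.38% of all genes. These are matches of letters, and binding was not measured here.

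NFKB2 had exon counts of 1595, 1777 and 1566 with the control vector and 833, 822 and 822 after knockdown. Every shNFKBIZ library was far below every shCtrl library, and the spread within each group was small. NFKB2 was lower by 2.01-fold, a log2 fold change of -1.01 ± 0.05 (SE; edgeR, adjusted P = 4.14e-14). A change at least this large was seen in 9.04% of all genes tested. Without shCtrl replicate 2 the log2 fold change was -0.98 and on library size alone -0.92, both short of 2-fold but past the test.

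RELB (ENSG00000104856, chr19:45001461-45038192, plus strand) encodes the transactivating partner of NFKB2. It had exon counts of 446, 495 and 431 with the control vector and 435, 428 and 457 after knockdown. The groups overlapped. RELB did not pass the test (log2 fold change -0.07 ± 0.06, 95% interval -0.20 to 0.06; edgeR, adjusted P = 0.361). In the same libraries its partner NFKB2 stood 2.01-fold lower.

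MAP3K14 encodes NIK, the kinase whose stabilisation starts the alternative pathway, and was the only member that passed the test and was higher. The gene (ENSG00000006062) lies at chr17:45263119-45317029 on the minus strand. It had exon counts of 543, 575 and 607 with the control vector and 739, 707 and 696 after knockdown, without overlap. The log2 fold change was 0.30 ± 0.06 (SE; edgeR, adjusted P = 0.000283). Counted on exon-exon junction reads alone it was 0.20 and did not pass (edgeR, adjusted P = 0.131). Its antisense neighbour MAP3K14-AS1 shares 6706 bases with it but had only 3 exon reads in shCtrl and 1 in shNFKBIZ.

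CHUK (ENSG00000213341, chr10:100188300-100229596, minus strand), the IKKα subunit that serves both pathways, fell. It had exon counts of 1149, 1071 and 1151 with the control vector and 880, 828 and 871 after knockdown. The groups did not overlap, and the log2 fold change was -0.40 ± 0.06 (SE; edgeR, adjusted P = 1.82e-06). CHUK and REL are the members with the lowest GC content, and the trend of all genes on GC content and length would put each at -0.13. With that trend removed, CHUK was at -0.27 and REL at -0.49, and both still passed.

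RELA (ENSG00000173039, chr11:65653599-65663090, minus strand), which encodes p65, the main transactivating subunit, was lower by a small amount. It had exon counts of 2919, 3149 and 2741 with the control vector and 2579, 2541 and 2600 after knockdown. The groups did not overlap, and the log2 fold change was -0.20 ± 0.04 (SE; edgeR, adjusted P = 7.05e-05). NFKB1 (ENSG00000109320, chr4:102501330-102617302, plus strand), the partner that supplies p50, had 1545, 1674 and 1488 exon reads against 1407, 1410 and 1419, also without overlap. It was lower by a log2 fold change of -0.17 ± 0.04 (SE; edgeR, adjusted P = 0.00176). Of the members that passed, this was the smallest change, and on library size alone it did not pass (-0.08; edgeR, adjusted P = 0.122). That scaling moved the median log2 fold change of all genes up by 0.09. The trend on GC content and length would put NFKB1 at -0.07. With that trend removed NFKB1 was at -0.09 and passed by little (edgeR, adjusted P = 0.0408).

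REL (ENSG00000162924, chr2:60881491-60931612, plus strand), which encodes c-Rel, a subunit best known from lymphocytes, had the largest relative change after NFKB2. It had exon counts of 502, 437 and 490 with the control vector and 361, 296 and 282 after knockdown, and the groups did not overlap. The log2 fold change was -0.62 ± 0.10 (SE; edgeR, adjusted P = 3.69e-05). Unique reads made up only 52.4% of its exon reads in shCtrl and 54.6% in shNFKBIZ. A lncRNA on the same strand (ENSG00000267520) shares 5702 bases with it and had 379 and 262 exon reads in the 2 groups. On unique reads the change was -0.56 and passed. On junction reads, of which there were 84 in shCtrl and 74 in shNFKBIZ, shNFKBIZ stood at 0.929 of shCtrl (exact 95% limits 0.670 and 1.29) and the change of -0.15 did not pass (edgeR, adjusted P = 0.646).

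IKBKB (ENSG00000104365, chr8:42271302-42332460, plus strand) encodes the catalytic subunit of the canonical pathway. It had exon counts of 1315, 1463 and 1225 with the control vector and 1061, 1164 and 1110 after knockdown. It did not overlap after scaling and fell by 0.28 ± 0.05 (log2, SE; edgeR, adjusted P = 5.46e-05). IKBKG (ENSG00000269335, chrX:154541199-154565046, plus strand), which encodes NEMO, had 1056, 1045 and 965 reads against 1104, 1140 and 1066. The groups did not overlap in TPM but overlapped after TMM scaling, and it did not pass (log2 fold change 0.10 ± 0.05; edgeR, adjusted P = 0.0854). On library size alone IKBKG was higher by 0.19 and passed (edgeR, adjusted P = 0.00231).

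IKBKE (ENSG00000263528, chr1:206470476-206496889, plus strand), the IKK-related kinase, had exon counts of 444, 497 and 422 with the control vector and 415, 463 and 413 after knockdown. The groups overlapped and it did not pass (log2 fold change -0.09 ± 0.07, 95% interval -0.23 to 0.04; edgeR, adjusted P = 0.254). Over all members, the groups did not overlap in scaled CPM (counts per total mapped reads) in 7 of 10, which is near the background, where 68.7% of all genes did not overlap, 34.1% being higher and 34.6% lower.

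By arm of the pathway, 4 of 5 canonical members (RELA, REL, NFKB1, IKBKB, but not IKBKG) were lower, where 32.8% of all genes were, with a median log2 fold change of -0.20 against 0.00 over all genes. Of the 3 alternative members, NFKB2 was lower, MAP3K14 higher and RELB did not pass, with a median of -0.07.

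Whether the balance of the arms shifted was read from 4 ratios within each library, 3 of an alternative to a canonical member and CHUK, which serves both arms, to IKBKB. Such ratios do not depend on scaling between libraries, but the trend on GC content and length was not removed from them. NFKB2 to NFKB1 was 2.90, 2.98 and 2.96 in shCtrl and 1.66, 1.64 and 1.63 in shNFKBIZ, a 1.79-fold lower ratio (log2 difference -0.84 ± 0.02 SE). MAP3K14 to IKBKB was 0.805, 0.766 and 0.966 against 1.36, 1.18 and 1.22, a 1.49-fold higher ratio (0.57 ± 0.12). RELB to RELA was 0.278, 0.286 and 0.286 against 0.307, 0.307 and 0.320, higher by 1.10-fold (0.13 ± 0.02). These 3 ratios did not overlap between groups. Non-overlap was common in these data, with 68.7% of single genes not overlapping in scaled CPM. The share among ratios of other gene pairs was not computed, so non-overlap is not read as particular to these pairs. CHUK to IKBKB did overlap (1.40, 1.17 and 1.504 against 1.33, 1.14 and 1.26). In the exact two-sided permutation test, each of the first 3 had p = 0.1, the smallest that 3 against 3 allows, and CHUK to IKBKB p = 0.4; adjusted over the 4 ratios these were 0.133 and 0.4, so none could pass 0.05.

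**Figure D2:**
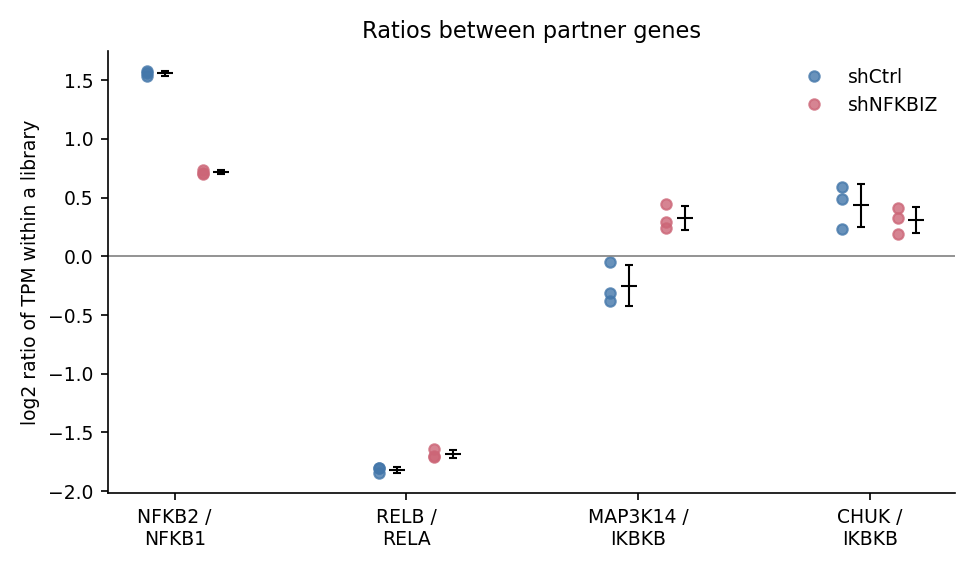
The log2 ratio of TPM within each library for 4 pairs, 3 of an alternative to a canonical member and CHUK (both arms) to IKBKB, points being libraries. The NFKB2 to NFKB1 ratio lies lower in all 3 shNFKBIZ libraries, the MAP3K14 to IKBKB and RELB to RELA ratios lie higher, and CHUK to IKBKB overlaps. How often ratios of other gene pairs do not overlap was not computed.

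The make-up of the transcripts of the 5 subunits shifted with NFKB2. Its share of their summed TPM was 26.5 ± 0.382% (SD, n = 3) in shCtrl and 16.9 ± 0.210% in shNFKBIZ. RELA rose in share from 48.3 ± 0.461% to 53.9 ± 0.0665% and RELB from 13.7 ± 0.142% to 16.8 ± 0.418%, although neither rose in reads. NFKB1 made up 8.99% and 10.3%, and REL 2.51% and 2.09%. The sum itself was 181 ± 4.59 TPM and 149 ± 0.867 TPM. These shares are of transcripts, and say nothing of protein or of dimers.

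**Figure D3:**
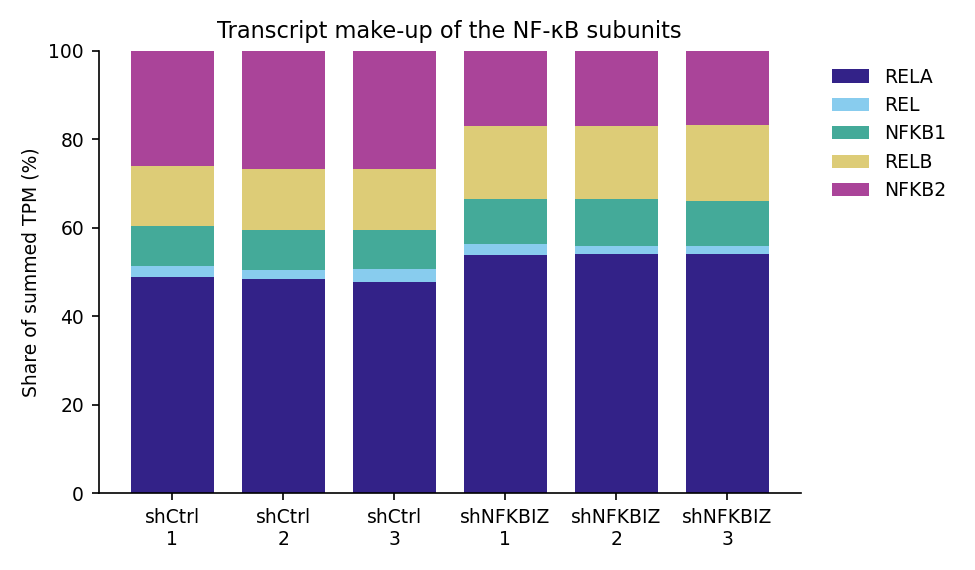
The share of summed TPM (%) of the 5 NF-κB subunits in each library, stacked from 0 to 100. The NFKB2 share is lower in all 3 shNFKBIZ libraries, at 16.9% against 26.5% in shCtrl, and the other large share, RELA, is 53.9% against 48.3%.

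Among the 3 IKK subunits, CHUK made up 34.5 ± 2.15% of the summed TPM in shCtrl and 29.1 ± 1.32% in shNFKBIZ. IKBKB took 25.6 ± 1.75% and 23.5 ± 0.884%. IKBKG took 39.9 ± 0.767% and 47.5 ± 0.928%. The sum was 77.0 ± 2.14 and 73.3 ± 2.31 TPM, which overlapped.

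Intron reads come mostly from transcripts not yet spliced and were counted apart, so the intron change was compared with the exon change. In intron reads 2 of 10 members changed, REL and IKBKB, both lower, where 38.8% of 12119 genes changed and 19.5% were lower. IKBKB had 315, 346 and 290 intron reads against 236, 275 and 219, a log2 fold change of -0.47 ± 0.08 (SE; edgeR, adjusted P = 1.96e-05). REL had 13, 21 and 15 against 10, 10 and 7, or 49 and 27 in all, which is 0.539 of the control level (exact 95% limits 0.324 and 0.879). The fitted value of -0.94 ± 0.35 passed by little (edgeR, adjusted P = 0.0291), and it did not pass without shCtrl replicate 2 (adjusted P = 0.151) or without shNFKBIZ replicate 2 (0.0594) or replicate 3 (0.119).

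For NFKB2 the introns held too few reads to compare: 12, 14 and 18 in shCtrl and 15, 7 and 8 in shNFKBIZ. The ratio of the sums, 30 to 44, was 0.667 with exact 95% limits of 0.405 and 1.08, which include both no change and the fold seen in exon reads. The test gave -0.64 ± 0.36 (edgeR, adjusted P = 0.163). RELA, NFKB1 and CHUK had intron changes of 0.27 ± 0.13, 0.19 ± 0.13 and 0.09 ± 0.14, none of which passed (edgeR, adjusted P = 0.111, 0.266 and 0.650). MAP3K14, with 33.4% of its reads in introns in shCtrl, had 292, 286 and 285 against 353, 337 and 319, a log2 fold change of 0.14 ± 0.08 that did not pass (edgeR, adjusted P = 0.173). IKBKG, RELB and IKBKE were at 0.12, -0.04 and 0.28 and did not pass. The members whose groups did not overlap in scaled intron reads were RELA, MAP3K14 and IKBKE (higher) and REL and IKBKB (lower), where 48.2% of all genes did not overlap, 24.5% being higher and 23.8% lower.

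The difference between the exon and intron changes was itself tested in 1 model over both kinds of read. It passed in 3 of 10 members, in all 3 with the exon change the lower one. Of 11025 genes it passed in 3182 (28.9%), and in 1733 (15.7%) with the exon change the lower one. RELA differed by -0.46 ± 0.13 (SE; edgeR, adjusted P = 0.00515). CHUK differed by -0.48 ± 0.14 (edgeR, adjusted P = 0.00510), and without shCtrl replicate 1 by -0.37 and did not pass (adjusted P = 0.0703). NFKB1 differed by -0.34 ± 0.13 (edgeR, adjusted P = 0.0414). It did not pass without shCtrl replicate 2 (adjusted P = 0.220), without shCtrl replicate 3 (0.107), without shNFKBIZ replicate 1 (0.266) or without shNFKBIZ replicate 3 (0.0588), nor on library size alone (-0.31, adjusted P = 0.0614). On library size alone the IKBKB difference of 0.21 became 0.23 and passed, with the exon change the higher one (edgeR, adjusted P = 0.0407). IKBKE differed by -0.36 ± 0.15, no less than NFKB1, but did not pass (edgeR, adjusted P = 0.0648). NFKB2 differed by -0.35 ± 0.35 (edgeR, adjusted P = 0.497), so for it a difference was not detectable at this depth. Intron reads also made up a larger share of all gene reads in shNFKBIZ, and the part of that in these differences was not tested.

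**Figure D4:**
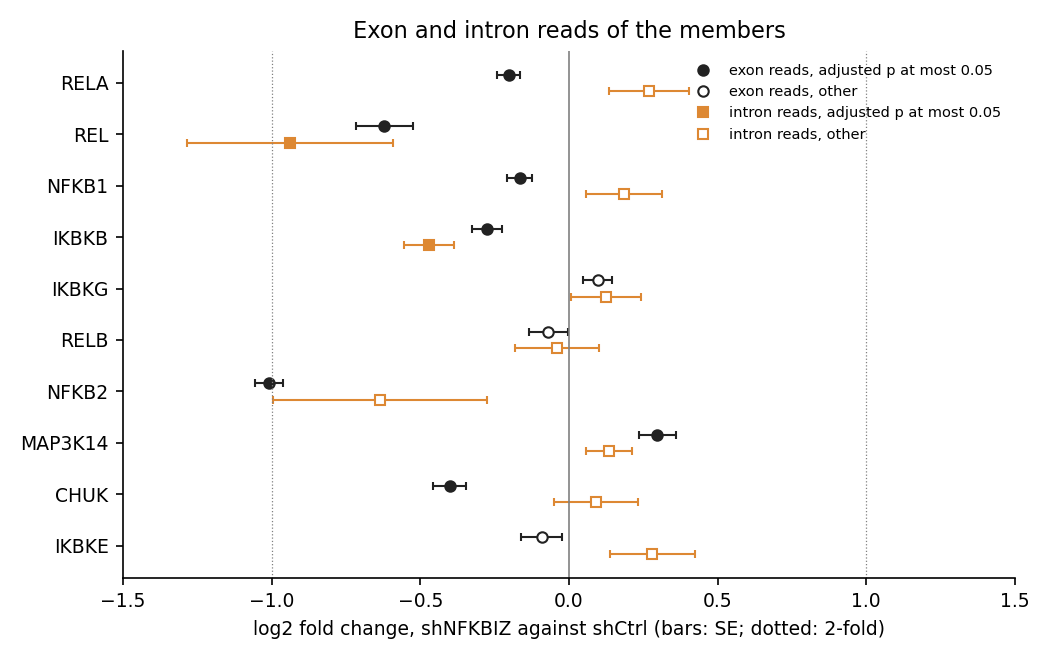
The log2 fold change of each member in exon and in intron reads, shNFKBIZ against shCtrl, with SE as bars and the 2-fold limit dotted. NFKB2 lies at -1.01 in exon reads, with a wide bar for its introns. Of the members that lie lower in exon than in intron reads, the difference passed the test in RELA, NFKB1 and CHUK.

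The genes most like NFKB2 over the 6 libraries, by root mean square distance of centred log2 CPM among all genes tested, were LINC02693 (0.0213, log2 fold change -0.97), MTOR (0.0238, -0.97) and ZNF217 (0.0249, -0.97). For NFKB1 they were UBAP1 (0.00943, -0.18), RNF44 (0.0107) and SPR (0.0116). RNF44 and SPR stood at -0.18 and -0.16.

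Around the members, 40 other genes of the pathway were listed and 37 were tested (CD40, TNFRSF1B and LTB did not pass the filter on low counts). Of these, 22 passed, or 59.5% against 65.3% of all genes, with 7 higher and 15 lower. Past the 2-fold threshold were 4, all lower, where 5.12% of all genes were lower by this much. The median log2 fold change was -0.03. By class, the share that passed was 60% for the IκB genes, 62.5% for the alternative arm and 56.2% for the canonical arm. It was 50% for the IKKε module and 75% for the deubiquitinases. The class counts below are read against the 65.3% of all genes that changed, 32.5% being higher and 32.8% lower.

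Of the 5 classical and nuclear IκB genes, drawn as inhibitors in the figure, 3 were lower. BCL3, a nuclear IκB protein related to IκBζ that binds p50 and p52 dimers, had 35.1, 36.7 and 33.3 TPM in shCtrl and 6.07, 7.14 and 6.52 in shNFKBIZ. It fell by 2.50 ± 0.08 (log2, SE; edgeR, adjusted P = 9.95e-17), the largest change among the 37 tested. NFKBIA, the IκBα inhibitor, also fell, by 0.77 ± 0.06 (log2; edgeR, adjusted P = 5.61e-11).

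In the alternative arm 8 of 11 listed genes were tested, and 4 were higher and 1 lower. BIRC2 and BIRC3 encode the cIAP ligases that mark NIK for destruction and moved in opposite directions. BIRC3 had 49.0, 46.2 and 47.9 TPM in shCtrl and 24.7, 25.5 and 24.8 in shNFKBIZ (log2 fold change -1.01 ± 0.04), and BIRC2 135.8, 122.1 and 148.1 against 187.2, 184.8 and 191.7 (0.39 ± 0.05). LTBR, the lymphotoxin β receptor, was 92.3, 96.2 and 101.7 against 131.5, 138.7 and 130.5 TPM (0.38 ± 0.04). None of the 3 overlapped between groups, and the adjusted P of edgeR was 6.19e-15, 3.51e-06 and 5.02e-09 in that order.

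In the canonical arm 2 of 16 were higher and 7 lower. MAP3K7, the TAK1 kinase that activates IKK, went from 39.8 to 20.8 TPM (log2 fold change -1.02 ± 0.04; edgeR, adjusted P = 5.46e-15). IL1RAP, the shared interleukin-1 receptor chain, went from 8.07 to 4.24 TPM (-1.01 ± 0.08; edgeR, adjusted P = 1.91e-10). TAB1, which binds TAK1, rose from 11.6 to 16.9 TPM (0.46 ± 0.08; edgeR, adjusted P = 1.93e-05). Of the 4 genes of the IKKε module, 1 was higher (TBKBP1) and 1 lower (AZI2, -0.79), and of 4 deubiquitinases 3 were lower, with TNFAIP3 at -0.73.

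BIRC3, MAP3K7 and IL1RAP lay just past 2-fold. With GC content and length trend removed they were at -0.85, -0.91 and -0.87, under the threshold while still passing the test, and only BCL3 stayed past it. Leaving out a library took 1 of them under the threshold in 4 of 6 cases: BIRC3 without shCtrl replicate 1 (-0.99), and IL1RAP without shCtrl replicate 3 (-0.95), shNFKBIZ replicate 1 (-0.99) or shNFKBIZ replicate 3 (-0.96).

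**Figure D5:**
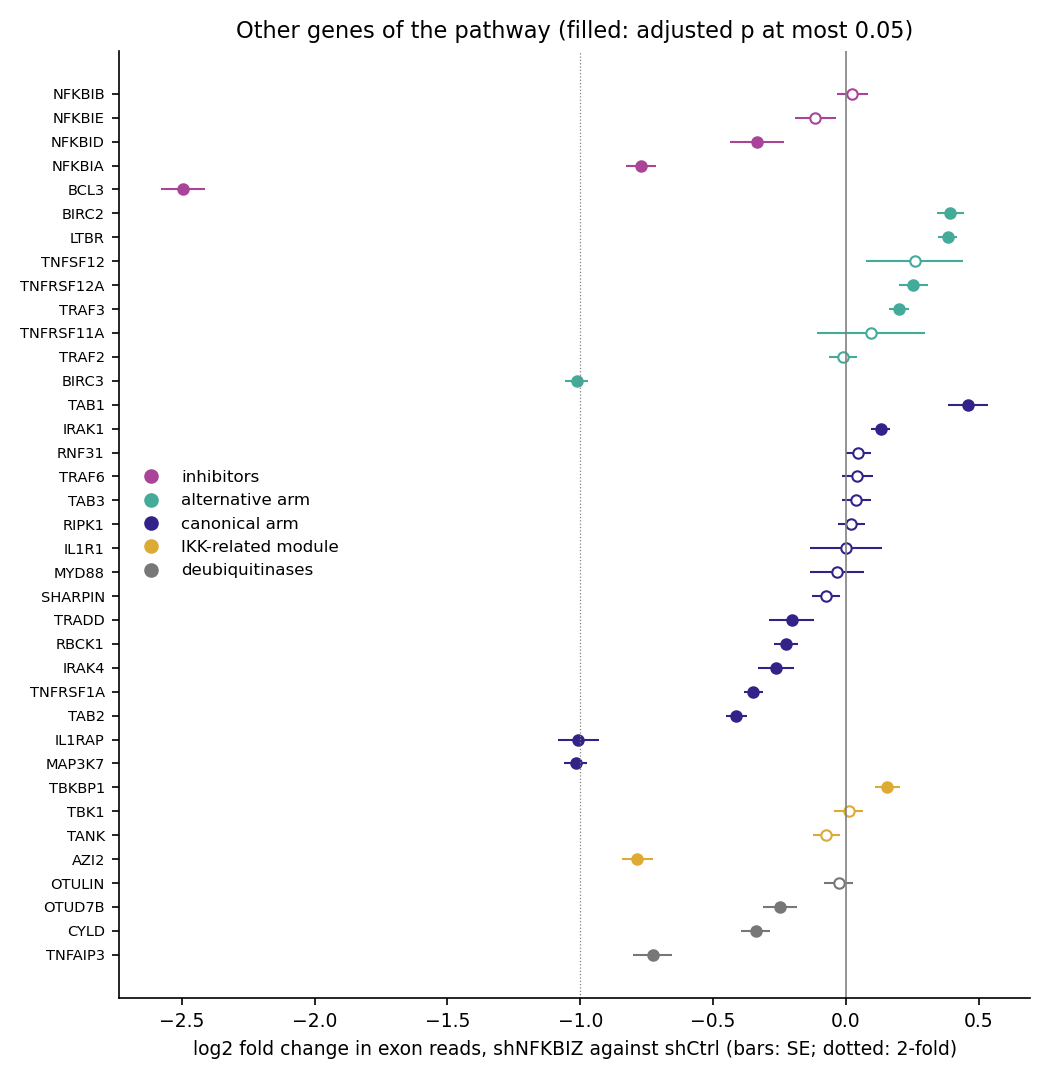
The log2 fold change in exon reads of the 37 other pathway genes tested, grouped by role, with SE as bars, filled points for an adjusted P of at most 0.05 and the 2-fold limit dotted. BCL3 lies far to the left at -2.50, and TAB1 is the highest at 0.46.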

How the data were processed

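RNA-seq libraries of 6 samples (3 shCtrl, 3 shNFKBIZ) were grouped by their titles. According to the methods, the authors mapped reads to hg38 in CLC Genomics Workbench under default settings, which did not use strand and kept reads with several hits. The counts they deposited are whole fragments per gene, given for each library as exon, intron, unique and junction reads. TPM was recomputed from exon reads and exon length. Gene coordinates of all 10 members matched GENCODE release 44.

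Exon and intron counts were each filtered with filterByExpr, scaled by TMM and compared with the two-sided quasi-likelihood test of edgeR 4.0.16 (R 4.3.3, robust), with Benjamini-Hochberg adjustment over all genes tested and no replicate block. A gene changed at an adjusted P of at most 0.05; the 2-fold threshold asked for a fold change of 2 as well. The standard error was the log2 fold change divided by the square root of F, and intervals are 1.96 SE. The exon and intron columns entered 1 model with a library block to test their difference. Partner ratios were compared with an exact permutation test. The scripts were tested on simulated data. The exact intervals cover counting error only. Same-numbered libraries deviated together only weakly (r = 0.02 to 0.06), though more than differently numbered ones (r = -0.04 to 0.01). In the main fit, numbers were not taken to pair samples, and a replicate block was tried as an alternative. Alternatives tried were library size alone, RLE factors, other filters, DESeq2 1.42.0, unique, total gene and junction reads, a GC content and length trend removed, a replicate block and leaving out each library. The junction reads and the trend were added after seeing the data. The named genes were the 10 members, NFKBIZ, the other pathway genes past 2-fold or with the 3 largest changes in each direction, and the 3 genes most like NFKB1 and NFKB2; NFKBIA, TNFAIP3, AZI2, TBKBP1 and the marker genes were given besides. The members and lists were chosen with earlier results of these data known. One result is not reported here.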

Additional observations from a re-analysis of the deposited data

How the results depend on the processing

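In exon reads RELA, IKBKB, NFKB2 and CHUK kept their call and direction under all 16 alternatives. With the replicate block, 7 members changed in exon reads, and the block changed no call of a member there. On library size alone, NFKB1 (-0.076) did not pass, IKBKG (0.19) passed, RELB was at 0.0205, no member was past the 2-fold threshold (0) and 1 other pathway gene was. On junction reads, which are fewer, 4 members changed, with REL (-0.15), NFKB1 (-0.12) and MAP3K14 (0.20) losing the call, and 5834 genes changed in all. Other pathway genes past 2-fold were 2 on total gene reads, 1 with GC content and length trend removed and 2 on junction reads, and 3 to 4 when a library was left out. Without a library, 0 to 1 members were past 2-fold (0 without shCtrl replicate 2). Members changed in intron reads were 4 on library size alone, 1 each with no filter, at least 10 reads and DESeq2, and 1 to 2 without a library. On library size alone RELB was at 0.018 in introns, and the exon minus intron difference was 0.013 for IKBKG and 0.0069 for RELB. With a library left out, intron changes ran from -0.042 to 0.23 for IKBKG, -0.18 to 0.074 for RELB and -0.015 to 0.24 for CHUK, and exon minus intron differences from -0.13 to 0.13 for IKBKG, -0.10 to 0.11 for RELB and -0.58 to 0.067 for NFKB2. The cause of these shifts was not tested. Intron depth limits REL and NFKB2 most.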
